A study of Mus musculus with 25 samples.

Results

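The genes described here code for the receptors of the colony-stimulating factors and for 1 of their ligands, and comprise Csf1r, Csf1, Csf2ra, Csf2rb, Csf2rb2 and Csf3r. They were taken by symbol from the deposited count table, and all 6 members were found among its 24537 rows. RNA was sequenced from 25 mouse libraries of 200 sorted cells each, all from C57BL6 mice with no genetic change named. White adipose tissue (eWAT in the titles) gave 4 macrophage populations: pop1 was Tim4+ with low MHCII, pop2 was Tim4+ with high MHCII, pop4 was Tim4- CD11c+ and MHCII+, and pop3 was Tim4- CD11c- with high MHCII. Each of them had 2 libraries from a high fat diet (HFD, 45% fat) and 2 from a control diet (CD, 10% fat). Blood monocytes, sorted on CD115 and Ly6C, had 3 HFD and 6 CD libraries. Of these 6 CD monocyte libraries 3 carry CD titles and 3 carry CD-CD titles, while all CD adipose libraries carry CD-CD titles. The adipose samples went through a collagenase digest with flavopiridol, a blocker of transcription, while blood underwent red cell lysis, so tissue and handling cannot be told apart in comparisons with monocytes. Whether equal numbers mark 1 animal, how many animals a library holds, their age and sex are not stated in the labels, and p-values may therefore measure technical spread.

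The factor CSF1 keeps most tissue macrophages and monocytes alive and dividing through CSF1R, a receptor tyrosine kinase that also answers to interleukin-34. The factors GM-CSF and G-CSF act through cytokine receptors without a kinase of their own, which signal by JAK and STAT proteins. GM-CSF is best known in macrophages of the lung and in inflamed tissue, and G-CSF for driving the production of neutrophils.

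Total counts ran from 3752835 to 9336395 per library, and 3 counts, used as a floor, equalled 0.341 to 0.698 CPM (the count as a share of the TMM-scaled library total). The sort markers followed the labels: Timd4, which codes for Tim4, averaged 438 CPM in pop1 and 312 CPM in pop2, against 2.72 CPM in pop4 and 3.27 CPM in pop3. Itgax, which codes for CD11c, averaged 185 CPM in pop4 and 20.1 CPM in pop3. The summed CPM of 8 macrophage markers ran from 2374 to 6326 in adipose libraries and from 1173 to 1699 in monocytes, and that of 7 classical monocyte markers from 1346 to 2421 in adipose libraries and from 5472 to 7499 in monocytes. F13a1 (mean 1048 CPM) and Ccr2 (766 CPM) made up most of the monocyte marker sum of adipose libraries, where the other 5 markers averaged 3.04 to 9.43 CPM each, against 478 to 709 CPM in monocytes. Reads on 1463 olfactory and vomeronasal receptor genes serve here as a measure of stray signal, and whether these cells use some of the genes was not tested. They summed to 244 to 683 CPM in Tim4+ libraries, 79.5 to 190 CPM in pop4, 194 to 657 CPM in pop3 and 93.0 to 255 CPM in monocytes. In bulk samples fewer cells of a type and less RNA per cell cannot be told apart. Differences below are log2 values of the first group over the second with their SE, tested with edgeR's quasi-likelihood test in 1 fit of all libraries, and a call means a Benjamini-Hochberg adjusted p under 0.05 over 16961 genes.

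Per length, Csf1r was the most abundant of the genes in pop1, pop2, pop3 and monocytes, while Csf2ra stood above it in pop4. Mean RPKM (CPM per kilobase of gene length) of Csf1r was 160 in pop1, 153 in pop2, 76.0 in pop4, 129 in pop3 and 118 in monocytes. Csf2ra, the ligand-binding chain of the GM-CSF receptor, had a mean of 103 RPKM in pop1, 86.0 in pop2, 140 in pop4, 98.9 in pop3 and 77.6 in monocytes. The ligand gene Csf1 lay at the other end in pop1, pop2, pop3 and monocytes. Its means ran from 0.248 RPKM in pop4 to 3.003 RPKM in pop3. In pop4 Csf3r was lower still, with a mean of 0.556 CPM against 1.03 CPM for Csf1. These means do not show the spread between libraries, which was small for Csf1r and large for Csf1, Csf2rb2 and Csf3r.

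**Figure D1:**
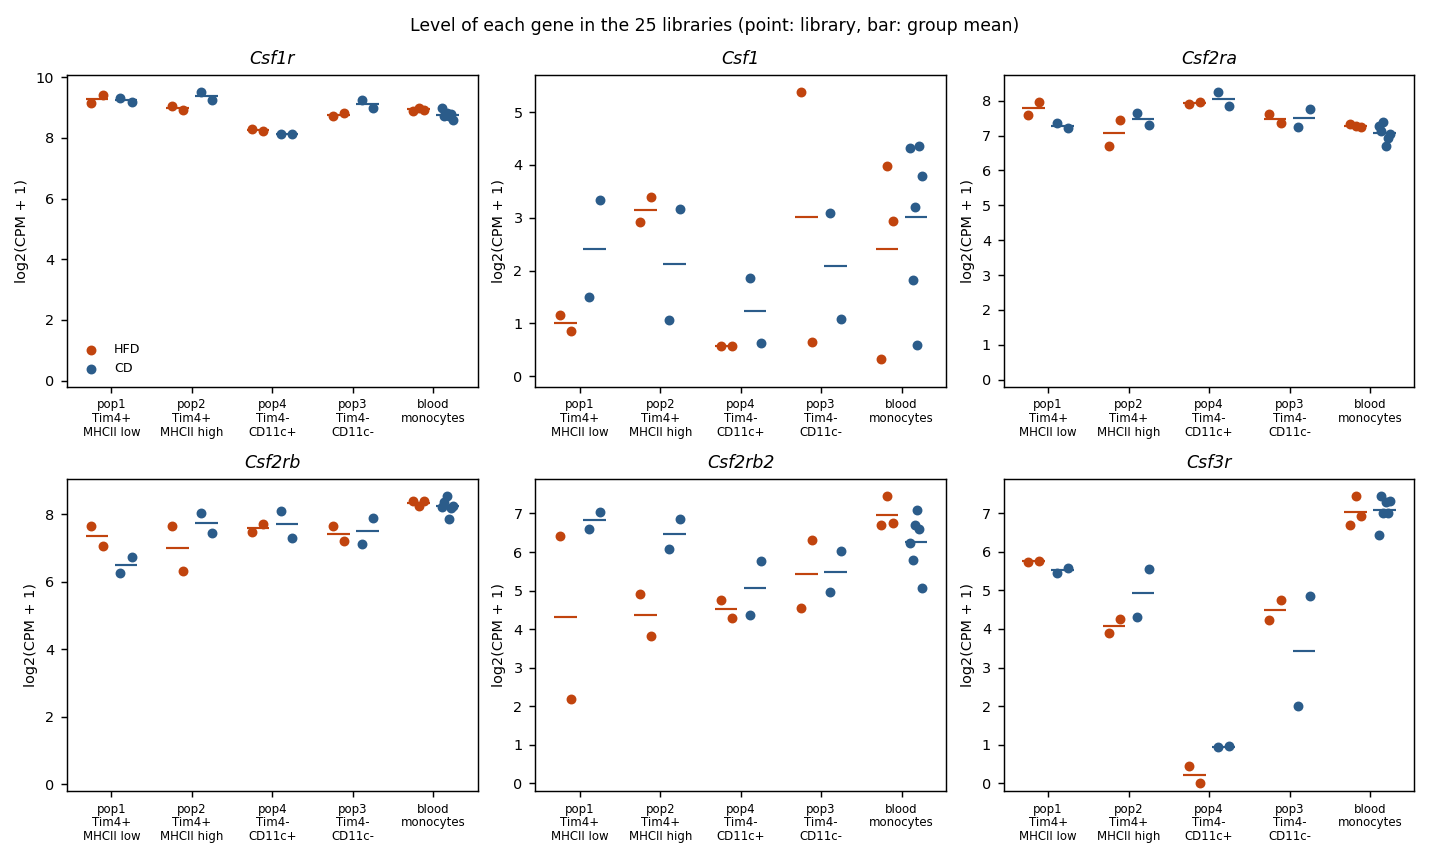
Level of each gene as log2(CPM + 1) on the y axis, by sorted population and diet on the x axis; each point is a library (2 per diet in adipose populations, 3 HFD and 6 CD in monocytes) and each bar the mean of its group. Csf1r is lowest in pop4, Csf3r is close to 0 in pop4 and highest in monocytes, and Csf1 points scatter over the lowest levels.

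Csf1r codes for CSF1R, also called CD115, the antigen used to sort the monocytes, and lies at chr18:61105572-61131139 on the plus strand (mm10). It was highest in the Tim4+ populations and lowest in the CD11c+ macrophages. In pop1 the HFD libraries had 571 and 679 CPM and the CD libraries 637 and 575 CPM. In pop2 the HFD libraries had 527 and 489 CPM and the CD libraries 733 and 613 CPM. All pop4 libraries lay lower, at 314 and 299 CPM on HFD and 280 and 277 CPM on CD. Pop3 had 419 and 454 CPM on HFD and 611 and 503 CPM on CD, so that its lowest library was above the highest of pop4. Monocytes had 478, 507 and 488 CPM on HFD, and their 6 CD libraries ran from 385 through a median of 428 to 507 CPM.

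Tim4+ macrophages thus averaged 603 ± 79.7 CPM of Csf1r and Tim4- macrophages 395 ± 123 CPM (SD, n = 8 each), which is 0.66 on the log2 scale (SE 0.083, adjusted p = 1.42e-05). This was 1 of 2 members called in that comparison, where 15.1% of all genes were called. Within the Tim4- cells, Csf1r was lower in pop4 than in pop3 by a log2 difference of -0.76 (SE 0.12, adjusted p = 4.38e-04), again with 1 other member called against 6.57% of all genes. It was higher in pop1 than in pop4 by 1.08 (SE 0.12, adjusted p = 2.68e-06) and higher in pop2 than in pop4 by 1.004 (SE 0.12, adjusted p = 7.34e-06), comparisons that call 16.1% and 21.2% of all genes. Pop1 and pop2 did not pass the test against each other (adjusted p = 0.935, with 0 members called by edgeR or DESeq2, 1 at an unadjusted p under 0.05, and 0.466% of all genes), nor did pop1 against pop3 (log2 difference 0.32, SE 0.12, adjusted p = 0.216) or pop2 against pop3 (adjusted p = 0.400). For pop2 against pop3 edgeR called 0 members (1 at an unadjusted p under 0.05, and 1 by DESeq2) and 1.03% of all genes. The stray signal and the summed macrophage markers were also lower in pop4, the markers at 2374 to 3650 CPM in pop4 and 3988 to 5320 CPM in pop3. With the stray signal as a covariate, the pop4 to pop3 difference was -0.77 and missed the threshold (adjusted p = 0.0780), while the Tim4+ to Tim4- difference stayed called.

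Averaged over the adipose populations, Csf1r differed little from its level in monocytes, while single populations lay above or below that level. Adipose libraries averaged 499 ± 147 CPM (SD, n = 16) and monocytes 455 ± 43.1 CPM (SD, n = 9), and the ranges overlapped, at 277 to 733 CPM in adipose libraries and 385 to 507 CPM in monocytes. The log2 difference was 0.04 (SE 0.072, adjusted p = 0.685). With DESeq2 size factors, which move the median difference of all genes by 0.16, it was 0.20 and called (adjusted p = 0.0395). Since CD115 was part of the monocyte gate, the monocyte level is that of cells chosen for the protein. By population, pop4 was lower than monocytes by -0.67 (SE 0.10, adjusted p = 1.32e-04) and pop1 was higher by 0.41 (SE 0.10, adjusted p = 0.00408). The call of pop1 was lost without pop1 HFD replicate 3 (adjusted p = 0.0572) or pop2 CD replicate 7 (adjusted p = 0.0544). Pop2 was higher than monocytes by 0.34 (SE 0.10, adjusted p = 0.0124), a call lost without pop2 HFD replicate 2, pop2 CD replicate 7, pop3 CD replicate 8 or monocyte CD replicates 2 or 6 (adjusted p = 0.0694 to 0.484).

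The genes whose pattern over the 25 libraries was most like that of Csf1r were Rnase4 (Pearson r of log2(CPM + 1) 0.892), Nrp1 (0.892), Mylip (0.888), Tcf4 (0.886) and Mef2c (0.884), among genes with a mean of at least 10 CPM. Over the 16 adipose libraries they were Cd209d (0.958), Cd163 (0.953), a scavenger receptor of macrophages, and Siglech (0.949). Among the members, Csf3r came closest to Csf1r over the adipose libraries (r = 0.821), and the value over all 25 libraries was 0.484. All these points share libraries, depth and scaling.

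Csf1 codes for CSF1 and lies at chr3:107741048-107760469 on the minus strand. It was scarce in these cells, and single libraries set its group means. Pop1 had 1.24 and 0.811 CPM on HFD and 1.82 and 9.05 CPM on CD. Pop2 had 6.53 and 9.54 CPM on HFD and 1.10 and 8.02 CPM on CD. In pop4 3 libraries held 4 reads each and CD replicate 7 held 20, with 0.493 and 0.494 CPM on HFD and 2.61 and 0.538 CPM on CD. Pop3 ranged most widely, with 40.9 and 0.569 CPM on HFD and 7.46 and 1.13 CPM on CD. Monocytes had 0.257, 14.8 and 6.65 CPM on HFD, and 0.501 to 19.4 CPM with a median of 10.5 CPM on CD. The ranges of all populations overlapped.

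No comparison called Csf1. The log2 difference of adipose macrophages to monocytes was -1.38 (SE 0.71, adjusted p = 0.134). Without pop3 HFD replicate 2, which held 346 of the 399 Csf1 reads of pop3, it was -2.04 and called (adjusted p = 0.0298). In that library 10 stromal progenitor markers summed to 250.2 CPM, and to 457 to 1594 CPM in the other pop3 libraries. Its 6 mesothelial markers summed to 42.5 CPM, of which Msln made up 40.4 CPM, and to 2.73 to 6.22 CPM in the other pop3 libraries. The part of such cells in the Csf1 reads was not tested. The genes of the other ligands were near absent: Csf2, Csf3, Il3 and Il34, which code for GM-CSF, G-CSF, interleukin-3 and interleukin-34, had means of at most 0.613 CPM in every population. Of 5 such ligand genes only Il5, which codes for interleukin-5, passed the filter on low counts. It was higher in Tim4+ than in Tim4- cells (log2 difference 2.74, SE 0.70, adjusted p = 0.0132) at means of 0.779 CPM in Tim4+ and 0.240 CPM in Tim4- libraries, close to the floor, and the call was lost with the stray signal as a covariate.

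Csf3r codes for the G-CSF receptor and Csf2ra for the alpha chain that gives the GM-CSF receptor its specificity. In RPKM, these were the receptor genes with the highest and the lowest mean in the CD11c+ macrophages (140 for Csf2ra and 0.143 for Csf3r), and the bases before their transcription starts are shown for that reason. Both come from RefSeq on GRCm38.p6 and are the 250 bases upstream of the start, written 5′ to 3′ on the strand of the gene, with capitals marking GAGGAA, a core that PU.1 (Spi1) can bind.
Csf3r, chr4:126024409-126024658, plus strand: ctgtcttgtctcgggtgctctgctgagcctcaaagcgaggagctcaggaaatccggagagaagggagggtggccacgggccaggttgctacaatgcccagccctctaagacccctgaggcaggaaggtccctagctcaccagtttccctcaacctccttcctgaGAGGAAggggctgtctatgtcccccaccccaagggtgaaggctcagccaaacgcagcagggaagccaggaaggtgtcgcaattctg
Csf2ra, chr19:61228419-61228668, minus strand: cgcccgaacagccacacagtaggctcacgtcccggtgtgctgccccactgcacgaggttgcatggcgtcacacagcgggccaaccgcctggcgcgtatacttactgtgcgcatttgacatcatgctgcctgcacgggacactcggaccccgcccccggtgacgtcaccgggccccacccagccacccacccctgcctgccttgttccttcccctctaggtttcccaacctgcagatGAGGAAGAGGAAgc
GAGGAA or its reverse complement TTCCTC occurs in 23.1% of 27025 promoter windows of this length. It starts at -86 in Csf3r, and at -14 and -8 in Csf2ra as a tandem pair, counted from -1 at the base before the start. A C/EBP-type motif (TTGCNNAA or TTNNGCAA, in 9.55% of windows) and TATAAA or TTTATA (in 13%) had no match in either window. Promoter windows were examined for 4 of the 6 members, without Csf1r and Csf2rb. Of these windows, that of Csf2rb2 held the reverse form of the core at -167 and that of Csf1 held none of the motifs.

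Csf3r separated the sorted cells most widely: it was highest in monocytes, intermediate in the Tim4+ cells and in pop3, and at the floor in pop4. The gene lies at chr4:126024659-126044975 on the plus strand. Pop1 had 52.1 and 53.7 CPM on HFD and 42.9 and 47.1 CPM on CD. Pop2 had 13.8 and 18.1 CPM on HFD and 19.0 and 46.4 CPM on CD. The CD11c+ cells of pop4 had 0.369 and 0 CPM on HFD and 0.913 and 0.941 CPM on CD, which are 3, 0, 7 and 7 reads. Pop3 had 17.7 and 25.7 CPM on HFD and 3.02 and 27.9 CPM on CD, so that its lowest library still held 17 reads, as many as the 4 pop4 libraries together. Monocytes had 103, 173 and 121 CPM on HFD, and 85.1 to 172 CPM with a median of 141 CPM on CD. No adipose library reached the lowest monocyte library.

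Adipose macrophages averaged 23.1 ± 19.9 CPM of Csf3r (SD, n = 16) and monocytes 136 ± 30.8 CPM (SD, n = 9), and the log2 difference was -3.79 (SE 0.32, adjusted p = 9.41e-09). The fitted difference averages the adipose groups by population and diet on the log scale, pop4 near 0 among them, and is wider than the ratio of the means, which were 5.87 times higher in monocytes. This comparison called 1 member higher and 3 lower, beside 18.5% of all genes higher, 18.5% lower and 37.0% in all. Each population was below monocytes: the log2 difference was -1.46 in pop1 (SE 0.48, adjusted p = 0.0248), -2.56 in pop2 (SE 0.51, adjusted p = 7.72e-04) and -2.88 in pop3 (SE 0.52, adjusted p = 4.37e-04). For pop4 against monocytes the fitted value was -8.27 (adjusted p = 5.91e-08), which rests on 17 reads in pop4. These 4 comparisons called 32.8% (pop1), 40.0% (pop2), 25.2% (pop3) and 12.5% (pop4) of all genes. The pop1 call was lost on leaving out any 1 of 5 libraries (pop1 HFD replicates 2 and 3, pop1 CD replicates 7 and 8, and monocyte HFD replicate 2; adjusted p = 0.0529 to 0.0854). With the stray signal as a covariate, or with CD libraries alone, the pop1 and pop2 calls were lost, and those of pop3 and pop4 were kept.

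Neutrophils carry much of this receptor in blood, and 9 neutrophil markers summed to 6.53 to 37.7 CPM in adipose libraries and 7.77 to 236 CPM in monocytes. Their part in the level of Csf3r was not tested. The monocyte library with the lowest marker sum, CD replicate 6 at 7.77 CPM, had 155 CPM of Csf3r. The monocyte library with the highest sum, CD replicate 3 at 236 CPM, had 127 CPM, and a trend over the monocyte libraries was not tested. Of the 9 markers 7 passed the filter on low counts, and in adipose libraries against monocytes 2 were higher, 3 lower and 2 not called. Those higher were Retnlg (means of 5.77 CPM in adipose libraries and 0.102 CPM in monocytes) and Cxcr2 (0.843 CPM and 0.225 CPM), and those lower were S100a8 (4.23 CPM and 33.1 CPM), S100a9 (0.0906 CPM and 11.1 CPM) and Elane (0.170 CPM and 7.23 CPM).

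Within adipose tissue, Tim4+ cells averaged 36.7 ± 16.7 CPM of Csf3r and Tim4- cells 9.57 ± 12.1 CPM (SD, n = 8 each), with a log2 difference of 3.56 (SE 0.43, adjusted p = 7.76e-06). Here too the fitted value, averaged over groups that include pop4, is wider than the ratio of the means, which is 3.83. The log2 difference was -5.39 for pop4 to pop3 (SE 0.67, adjusted p = 3.45e-05), 6.80 for pop1 to pop4 (SE 0.70, adjusted p = 1.08e-06) and 5.71 for pop2 to pop4 (SE 0.68, adjusted p = 7.56e-06). Mean CPM was 33.4 times lower in pop4 than in pop3. Leaving out single libraries moved the pop4 to pop3 value between -7.13 and -4.29, and it remained called each time. Among pop1, pop2 and pop3 no pair was called, although DESeq2's Wald test called 2 members for pop1 against pop3, where edgeR called 0 (2 at an unadjusted p under 0.05) and 1.59% of all genes. Without pop3 CD replicate 8, edgeR also called Csf3r for pop1 against pop3 (log2 difference 2.54, adjusted p = 0.0181).

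The genes closest to Csf3r over the 25 libraries were Slfn5 (r = 0.901) and Slfn8 (0.899), members of the interferon-responsive Schlafen family, followed by Tmem268 (0.891), Hpse (0.889) and Xdh (0.875). Over the adipose libraries they were Gm4951 (0.928), Tnfrsf25 (0.914) and Pigz (0.914).

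**Figure D2:**
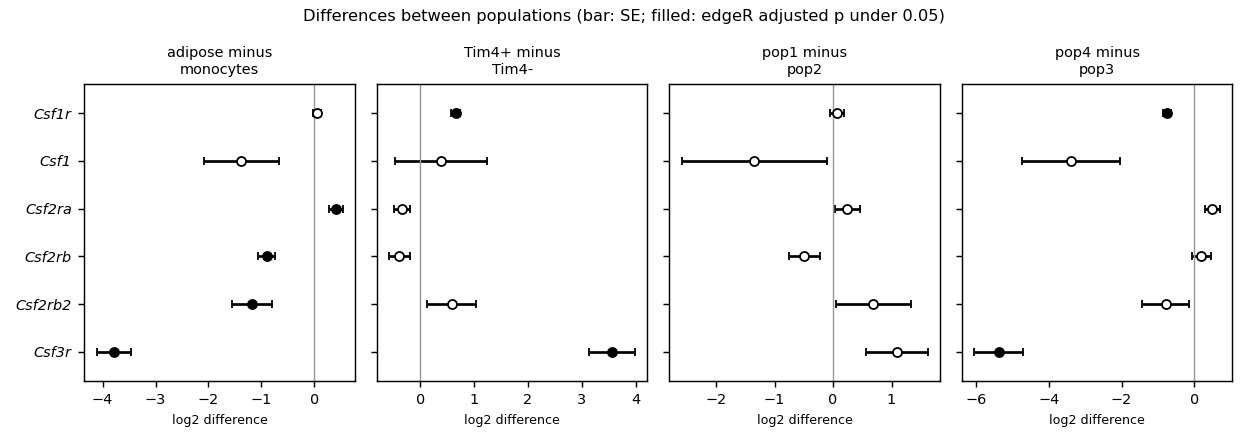
Log2 difference of the first group over the second (x axis) with its SE for the genes named on the y axis, in 4 comparisons; filled points passed an adjusted p of 0.05, and the x axes differ between panels. Csf3r lies furthest from 0 in the adipose to monocyte, Tim4+ to Tim4- and pop4 to pop3 panels, and no gene passed in the pop1 to pop2 panel.

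Csf2ra, at chr19:61224402-61228418 on the minus strand, had its highest mean in the CD11c+ cells, where Csf1r and Csf3r had their lowest. Pop1 had 194 and 249 CPM on HFD and 164 and 148 CPM on CD. Pop2 had 103 and 174 CPM on HFD and 198 and 156 CPM on CD. In pop4 the values were 240 and 251 CPM on HFD and 305 and 232 CPM on CD, and all were above every pop3 library. Pop3 had 197 and 162 CPM on HFD and 150 and 217 CPM on CD. Monocytes had 160, 153 and 151 CPM on HFD, and 103 to 168 CPM with a median of 136 CPM on CD.

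Pop4 was higher than monocytes by a log2 difference of 0.82 (SE 0.18, adjusted p = 0.00292). It was 1 of 4 members called in that comparison, where 12.5% of all genes were called. Pop1, the population with the next highest mean, was not called against pop4 (-0.47, SE 0.21, adjusted p = 0.127), and pop1 HFD replicate 3 lay above 2 of the 4 pop4 libraries. The pop4 to pop3 difference of 0.50 (SE 0.21, adjusted p = 0.141) and the Tim4+ to Tim4- difference of -0.34 (SE 0.15, adjusted p = 0.123) were not called, and without pop2 HFD replicate 3 the second was (-0.46, adjusted p = 0.0428). Pop2 was lower than pop4 by -0.71 (SE 0.21, adjusted p = 0.0237), a call lost without pop2 CD replicate 8, pop2 HFD replicate 2, pop4 CD replicate 7, pop4 HFD replicate 2 or pop4 HFD replicate 3 (adjusted p = 0.0531 to 0.0669). Over all adipose libraries Csf2ra averaged 196 ± 50.7 CPM (SD, n = 16) and in monocytes 142 ± 20.3 CPM (SD, n = 9), a difference of 0.40 (SE 0.13, adjusted p = 0.0212). That call was lost on leaving out any 1 of 6 libraries (pop2 CD replicate 7, pop3 CD replicate 8, pop4 CD replicate 7, monocyte CD replicates 2 and 6, and monocyte HFD replicate 3; adjusted p = 0.0517 to 0.117).

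The beta chains carry the signal of the GM-CSF receptor. Csf2rb codes for the beta common chain shared by the receptors for GM-CSF, interleukin-3 and interleukin-5, and Csf2rb2 for a second mouse beta chain that serves interleukin-3 alone. They lie near each other on chromosome 15, Csf2rb at chr15:78325990-78351001 on the plus strand and Csf2rb2 at chr15:78282508-78305721 on the minus strand. Their transcripts of 4764 and 4740 bases are 91.0% identical over 4655 aligned bases, and 18.9% of the 50-base windows of Csf2rb occur unchanged in Csf2rb2. How the counting treated reads that match both is not given in the sources used here, so the split between them is uncertain and their sum is given as well.

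Csf2rb was lower in adipose macrophages than in monocytes. Pop1 had 201 and 133 CPM on HFD and 74.9 and 106 CPM on CD. Pop2 had 198 and 79.6 CPM on HFD and 259 and 172 CPM on CD. Only pop2 CD replicate 7 and pop4 CD replicate 7 among adipose libraries, together with pop3 CD replicate 8, exceeded the lowest monocyte library. Pop4 had 178 and 208 CPM on HFD and 274 and 157 CPM on CD, and pop3 had 198 and 146 CPM on HFD and 137 and 233 CPM on CD. Monocytes had 332, 300.0 and 335 CPM on HFD, and 230.3 to 370.0 CPM with a median of 299 CPM on CD. The mean was 172 ± 58.5 CPM in adipose libraries (SD, n = 16) and 309 ± 38.9 CPM in monocytes (SD, n = 9), or -0.90 on the log2 scale (SE 0.16, adjusted p = 1.50e-04). With the stray signal as a covariate it was -0.85 and just missed the threshold (adjusted p = 0.0505). By population, the difference to monocytes was -1.34 in pop1 (SE 0.25, adjusted p = 3.39e-04), -0.85 in pop2 (SE 0.24, adjusted p = 0.00941) and -0.80 in pop3 (SE 0.24, adjusted p = 0.0183), while pop4 did not pass the test (adjusted p = 0.101). The pop2 call was lost without pop2 HFD replicate 3 (adjusted p = 0.0563), and that of pop3 without pop3 CD replicate 7 (adjusted p = 0.0909) or pop3 HFD replicate 3 (adjusted p = 0.0749). With all libraries no pair of adipose populations was called, pop1 against pop4 being at -0.73 (SE 0.27, adjusted p = 0.0651). Leaving out pop2 HFD replicate 2 (-0.75) or replicate 3 (-0.74) turned that difference into a call. Without pop2 HFD replicate 2, Tim4+ against Tim4- was also called (-0.61).

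Csf2rb2 varied more between replicates. Pop1 had 84.5 and 3.57 CPM on HFD and 95.7 and 131 CPM on CD. Pop2 had 29.1 and 13.03 CPM on HFD and 67.0 and 116 CPM on CD. Within pop1 the HFD libraries held 614 and 22 reads. Pop4 had 26.0 and 18.5 CPM on HFD and 19.6 and 53.1 CPM on CD, and pop3 had 22.4 and 79.0 CPM on HFD and 30.4 and 63.7 CPM on CD. Monocytes had 104, 174 and 107 CPM on HFD, and 32.8 to 135 CPM with a median of 85.5 CPM on CD. Adipose macrophages were lower by a log2 difference of -1.17 (SE 0.38, adjusted p = 0.0199). This call was lost without monocyte HFD replicate 2 (-1.03, adjusted p = 0.0673) and in CD libraries alone (-0.36, adjusted p = 0.472). By population, pop4 alone was called lower than monocytes (-1.85, SE 0.61, adjusted p = 0.0493), and the call was lost on leaving out any 1 of 15 of the 25 libraries (adjusted p = 0.0526 to 0.235). These were all pop4 libraries, monocyte HFD replicates 1, 2 and 3, monocyte CD replicates 1, 3, 6 and 7, pop1 CD replicates 7 and 8, pop2 CD replicate 8 and pop3 CD replicate 7. Without pop1 HFD replicate 2, pop1 was called lower as well (-2.38, adjusted p = 0.00725).

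Summed, the beta chains gave a steadier picture. Their sum averaged 225 ± 63.4 CPM in adipose libraries (SD, n = 16) and 407 ± 50.7 CPM in monocytes (SD, n = 9), and the highest adipose library (326 CPM) was below the lowest monocyte library (333 CPM). The log2 difference was -0.90 (SE 0.15, adjusted p = 7.32e-05). Each population was lower than monocytes, by -1.003 in pop1 (adjusted p = 0.00230), -0.91 in pop2 (adjusted p = 0.00431), -0.84 in pop4 (adjusted p = 0.0155) and -0.87 in pop3 (adjusted p = 0.00803). Between adipose populations the sum averaged 207 CPM in pop1, 233 CPM in pop2, 234 CPM in pop4 and 228 CPM in pop3, and no pair was called.

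The share of Csf2rb2 in the reads of both genes ran from 2.62% (exact binomial 95% interval 1.65% to 3.93%) in pop1 HFD replicate 3 to 56.1% (52.8% to 59.3%) in pop1 CD replicate 7. Its mean was 23.1% in adipose libraries and 23.6% in monocytes, with a difference of -0.55 percentage points (exact two-sided permutation test, p = 0.928, n = 16 and 9). Tim4+ libraries averaged 28.9% and Tim4- libraries 17.2%, 11.7 points apart (exact two-sided permutation test, p = 0.161, n = 8 each). The intervals cover counting error only. Replicates of some groups stood further apart than their intervals, as in pop1 HFD (2.62% and 29.6%). In other groups the intervals overlapped, as in pop1 CD (56.1% and 55.4%) and pop2 HFD (12.8% and 14.1%). The receptors that share the beta common chain were tested as well: Il3ra averaged 21.4 CPM in adipose libraries and 5.58 CPM in monocytes, Il5ra was at or under 0.930 CPM on average in every population, and neither was called.

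**Figure D3:**
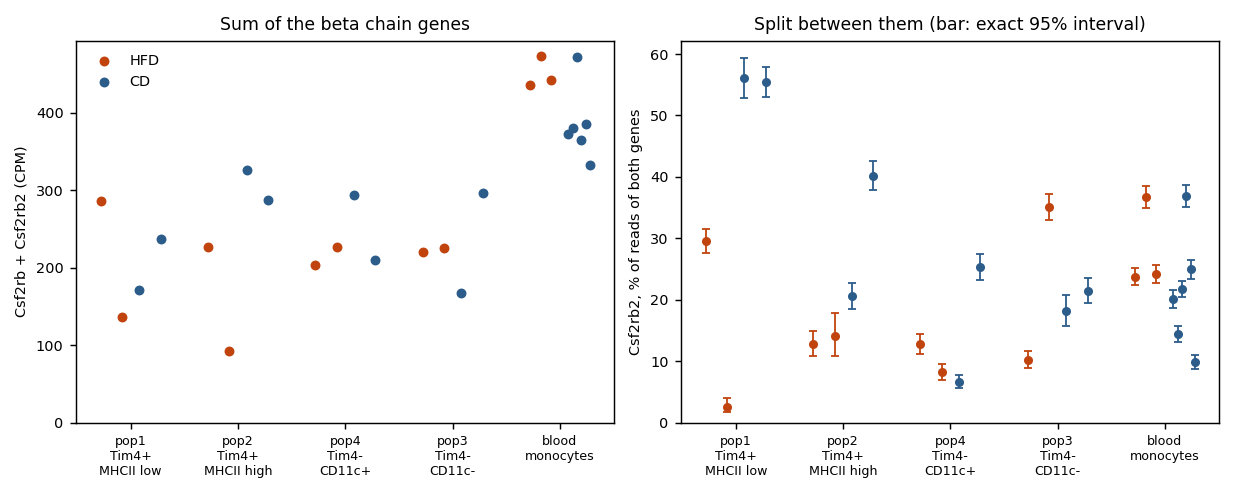
Left, the summed CPM of Csf2rb and Csf2rb2 by population and diet on the x axis; right, the percentage of their reads that fell on Csf2rb2, with exact binomial 95% intervals; each point is a library. The sums of all 16 adipose libraries lie below those of all 9 monocyte libraries, while the percentages spread from 2.62% to 56.1%.

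The genes that act with these receptors were counted from 3 lists: 8 transcription factors known to act on the receptor genes, 22 genes of CSF1R signalling and 14 genes of JAK-STAT signalling. In adipose macrophages against monocytes, where 37.0% of all genes were called, 2 of the 8 factors rose and 3 fell. Spi1, which codes for PU.1, a factor needed for Csf1r expression, fell by 1.33 (SE 0.16, adjusted p = 1.17e-06), with means of 103 CPM in adipose libraries and 219 CPM in monocytes. Cebpb fell by 1.56 (SE 0.14, adjusted p = 2.45e-08) and Irf8 fell by 1.82 (SE 0.22, adjusted p = 1.85e-06), both factors of myeloid differentiation. The median of the list was -0.24, and that of all genes tested was 0.19.

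Of the 22 CSF1R signalling genes, 3 rose and 10 fell, beside 37.0% of all genes called, and the median was -0.50. Those that fell included the Src-family kinases Fgr (-3.66, SE 0.26, adjusted p = 6.40e-10) and Lyn (-1.11, SE 0.075, adjusted p = 2.91e-10). Fgr had means of 66.1 CPM in adipose libraries and 396 CPM in monocytes. Plcg2, a phospholipase, fell by 1.77 (SE 0.15, adjusted p = 1.01e-08) and Ptpn6, the phosphatase SHP-1, which limits CSF1R signals, fell by 1.25 (SE 0.13, adjusted p = 1.47e-07). The adaptor Dok2, another brake on receptor kinases, rose by 4.50 (SE 0.71, adjusted p = 4.48e-05), with means of 247 CPM in adipose libraries and 12.4 CPM in monocytes. Of the 14 JAK-STAT genes 2 rose and 4 fell, a share near the 37.0% of all genes called, with a median of -0.54. Socs2, a feedback inhibitor of cytokine receptors, rose by 4.17 (SE 0.71, adjusted p = 1.01e-04) with means of 9.81 CPM in adipose libraries and 0.237 CPM, under the floor, in monocytes. The receptor kinases closest to Csf1r were also called: Flt3 fell by 3.89 (SE 0.50, adjusted p = 3.25e-06), and Kit, Pdgfra and Pdgfrb rose but averaged at most 13.03 CPM in any population. That highest mean was Pdgfra in pop3, whose libraries ran from 0.569 to 46.0 CPM. With the stray signal as a covariate, the calls of Kit, Pdgfra and Pdgfrb were lost (adjusted p = 0.589, 0.451 and 0.802). In all, 11 of 28 calls were then lost, counting these receptor kinases with the 3 lists. The call of Kit was lost on leaving out any of 3 libraries (monocyte HFD replicates 2 and 3 and pop4 HFD replicate 3), and that of Pdgfrb on leaving out any of 18.

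In Tim4+ against Tim4- macrophages, where 15.1% of all genes were called, 1 of the 8 factors rose and 2 fell. Spi1 fell by 1.16 (SE 0.19, adjusted p = 3.07e-04) and Cebpe, a factor of granulocyte maturation, fell by 4.24 (SE 1.16, adjusted p = 0.0183), a call lost without pop3 CD replicate 7. Cebpe averaged 10.1 CPM in pop4 and at most 0.959 CPM in the other populations. Spi1 averaged 61.1 CPM in Tim4+ libraries and 146 CPM in Tim4- libraries, while Csf1r was higher in Tim4+ libraries. Of the CSF1R signalling genes 1 rose and 6 fell, led by Fgr (-2.61, SE 0.33, adjusted p = 1.50e-05), with means of 19.2 CPM in Tim4+ and 113 CPM in Tim4- libraries. Of the JAK-STAT genes 1 fell, Socs2 (-3.33, SE 0.65, adjusted p = 0.00145). The medians were 0.18 for the factors, -0.16 for CSF1R signalling and -0.15 for JAK-STAT signalling, beside 0.14 for all genes. With the stray signal as a covariate, 12 of 13 calls were lost, counting Il5 and Flt3 with the 3 lists. That of Fgr was kept (-2.42, adjusted p = 0.0113), while Spi1 was at -0.84 (adjusted p = 0.148) and Plcg2 at -1.08 (adjusted p = 0.0521). With CD libraries alone the calls of Spi1 and Fgr were lost.

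In pop4 against pop3, where 6.57% of all genes were called, Spi1 rose by 1.12 (SE 0.27, adjusted p = 0.0159) and Cebpb by 0.84 (SE 0.24, adjusted p = 0.0422), while Irf8 fell by 2.05 (SE 0.39, adjusted p = 0.00334), and in all 2 of 8 factors were higher and 2 lower. Of the CSF1R signalling genes 2 rose, Fgr (2.12, SE 0.45, adjusted p = 0.00742) and Plcg2 (1.13, SE 0.26, adjusted p = 0.0115), and 1 JAK-STAT gene rose, the survival gene Mcl1 (0.51, SE 0.11, adjusted p = 0.00752). List medians were 0.21 for the factors, 0.04 for CSF1R signalling and 0.24 for JAK-STAT signalling, beside -0.17 for all genes. All 9 calls, counting Kit and Flt3 with the 3 lists, were lost with the stray signal as a covariate. The difference was then 0.63 for Spi1 (adjusted p = 0.749), 1.83 for Fgr (adjusted p = 0.410) and -2.13 for Irf8 (adjusted p = 0.185). The call of Spi1 was lost without pop3 CD replicate 8, pop3 HFD replicate 3, pop4 CD replicate 8 or pop4 HFD replicate 2. Those of Plcg2 and Mcl1 were lost without pop3 CD replicate 8, and that of Cebpb on leaving out any of 11 libraries.

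**Figure D4:**
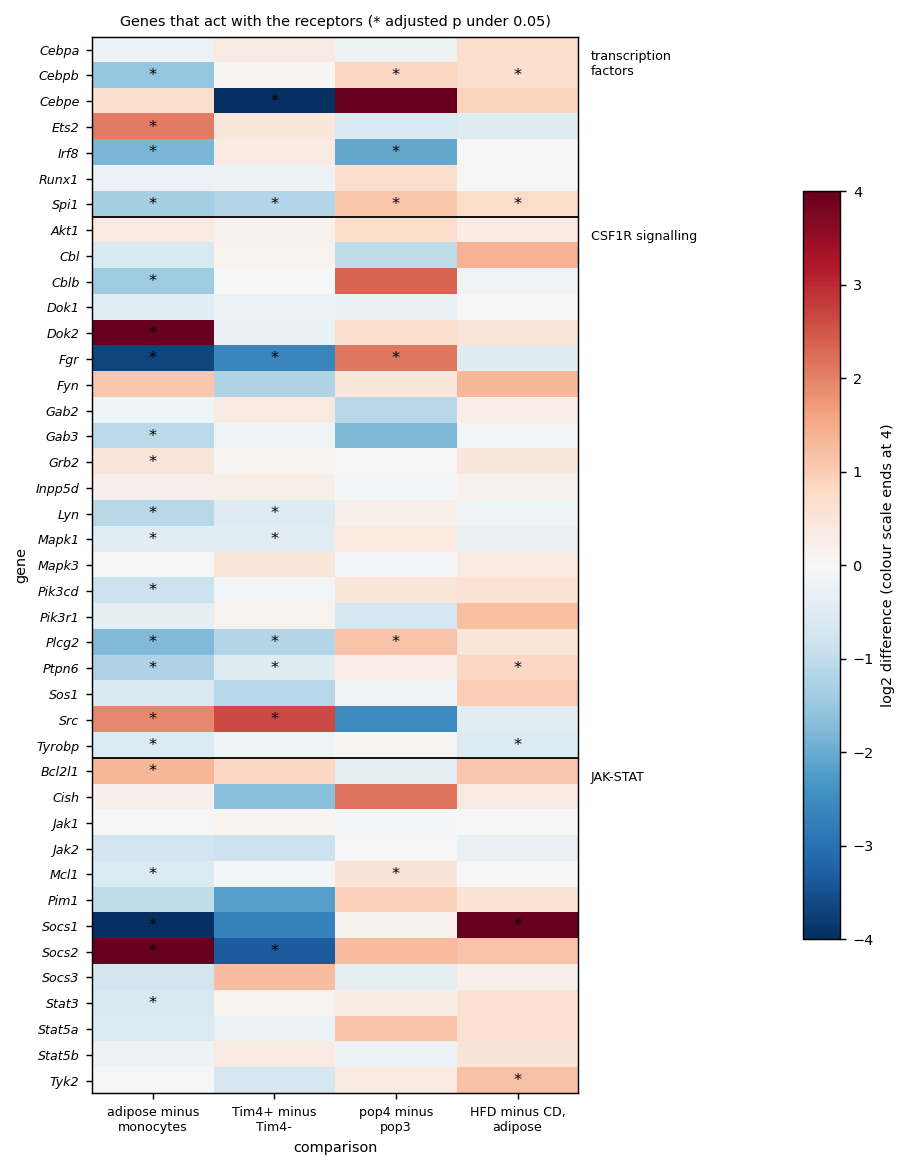
Log2 differences, as colour, of genes that act with the receptors (y axis) in 4 comparisons (x axis), with the group named before "minus" as the first; stars mark an adjusted p under 0.05 and the colour scale ends at 4 in both directions. The adipose to monocyte column holds most of the stars, among them Dok2 as higher and Fgr, Lyn and Spi1 as lower.

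HFD against CD called no member in any population. Over the adipose populations edgeR called 0 of 6 members and 5.34% of all genes, with 1 member at an unadjusted p under 0.05 and 0 called by DESeq2. That member was Csf2rb2, with means of 34.5 ± 30.2 CPM on HFD and 72.1 ± 39.5 CPM on CD (SD, n = 8 each) and a log2 difference of -1.02 (SE 0.46, adjusted p = 0.218). Leaving out pop1 HFD replicate 2 turned it into a call (-1.92, adjusted p = 0.00736) and also gave a call within pop1 (-4.98, adjusted p = 0.0465), where the HFD group is then the library with 22 reads. The sum of both beta chains differed by -0.29 (SE 0.18, adjusted p = 0.378). All adipose HFD libraries carry other titles (HFD) than the CD libraries (CD-CD), so diet and title series cannot be told apart in this tissue.

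Within populations edgeR called 0 members, as did DESeq2, and 0.436% of all genes in pop1, 4.19% in pop2, 0.0354% in pop4, 0.0943% in pop3 and 0.00590% in monocytes. At an unadjusted p under 0.05 there was 1 member in pop1, 2 in pop2, 1 in pop4, 1 in pop3 and 0 in monocytes. Csf1r had lower values in both HFD libraries than in both CD libraries of pop2 (log2 difference -0.40, SE 0.17, adjusted p = 0.205) and pop3 (-0.35, SE 0.17, adjusted p = 0.439). Csf2rb in pop1 lay higher on HFD (201 and 133 CPM) than on CD (74.9 and 106 CPM), with a log2 difference of 0.88 (SE 0.38, adjusted p = 0.383). The difference between the diet effects of Tim4+ and Tim4- cells was called for 0 of 6 members by edgeR and by DESeq2 (0 at an unadjusted p under 0.05) and for 0.637% of all genes.

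Among the genes that act with the receptors, HFD against CD in adipose cells, where 5.34% of all genes were called, gave 2 of 8 factors higher, 1 CSF1R signalling gene higher and 1 lower of 22, and 2 JAK-STAT genes higher and 1 lower of 14. Ptpn6 rose by 0.83 (SE 0.15, adjusted p = 0.00259), Spi1 rose by 0.73 (SE 0.19, adjusted p = 0.0273) and Tyrobp, which codes for the adaptor DAP12, fell by 0.55 (SE 0.081, adjusted p = 4.08e-04). List medians were 0.36, 0.30 and 0.52, beside -0.12 for all genes. With counts summed over the populations per title number, all 7 of these calls were lost, and no gene of the table was called. The call of Spi1 was also lost on leaving out any of 9 libraries, and those of Ptpn6 and Tyrobp were kept whichever library was left out. In pop2, the shallowest HFD group, 4 of 22 CSF1R signalling genes fell and none rose, beside 4.19% of all genes called. Among them Fgr fell by 3.45 (SE 0.71, adjusted p = 0.00632), a call lost without pop2 HFD replicate 2.

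**Figure D5:**
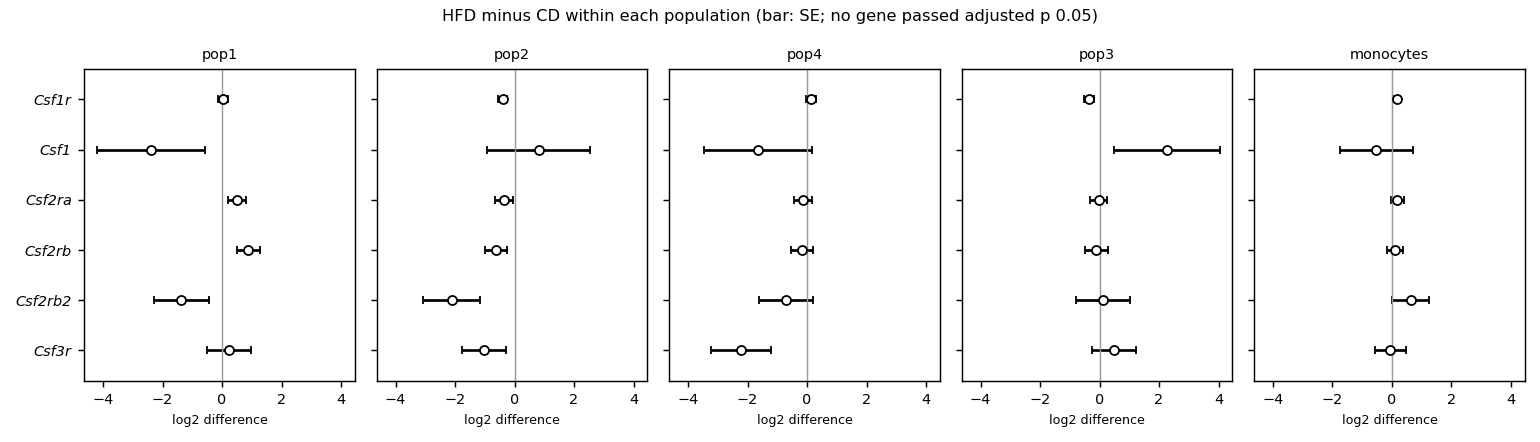
Log2 difference of HFD over CD (x axis, shared by the panels) with its SE for the genes named on the y axis, within each population. No point is filled, since no gene passed an adjusted p of 0.05, and Csf1 has the widest error in every panel.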

How the data were processed

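The authors deposited raw read counts for 24537 RefSeq gene models in 25 libraries, and no column was left unused. Reads were aligned with STAR 2.5.3a to mm10 and counted with HOMER, per the submitters' processing notes. Strand, duplicate removal and the treatment of reads with several matches are not given in the sources used here. Annotated genes overlapping the members are miRNA genes on the same strand (inside Csf1r, Csf2rb and Csf2rb2).

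Counts were analysed with edgeR 4.0.16 (R 4.3.3): filterByExpr by group, TMM scaling (0.893 to 1.15), and robust quasi-likelihood fitting of 10 group means (population by diet) to 16961 genes (15 residual degrees of freedom). The common BCV, edgeR's measure of the spread between libraries beyond counting error, was 0.749, and it may include technical spread. All 6 members passed the filter on low counts. CPM are shares of the TMM-scaled library total, RPKM use the deposited length. Levels are mean ± SD over n libraries. Intervals and the floor of 3 counts cover counting error only. The test was tried on simulated counts.

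The members are named in every comparison. From the pathway lists, genes past adjusted p 0.05 could be named, and others are counted; a few genes of these lists are counted but not reported here. The genes most like a member are the 5 with the highest Pearson r of log2(CPM + 1) over 25 libraries and 3 over the 16 adipose libraries. Members and lists were chosen with earlier results of these data known. Promoter windows come from RefSeq (GRCm38.p6). Alternatives were DESeq2 1.42.0, other scaling factors, no filter, a stray-signal covariate, a replicate block, subsets of libraries and leaving out each library.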

Additional observations from a re-analysis of the deposited data

Results flagged for a closer look

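A rule for outliers that flags about 1 in 20 groups of normal values by chance was applied to 36 groups of 4 to 9 libraries. Both diets were pooled within the adipose populations, so its rate by chance here is not known. The rule flagged 4 single libraries as far from the others of their population. For Csf1 these were pop1 CD replicate 8 with 9.05 CPM (the others 0.811 to 1.82 CPM), pop3 HFD replicate 2 with 40.9 CPM (the others 0.569 to 7.46 CPM) and pop4 CD replicate 7 with 2.61 CPM (the others 0.493 to 0.538 CPM). For Csf3r it was pop2 CD replicate 8 with 46.4 CPM (the others 13.8 to 19.0 CPM).

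For Csf1r and Csf3r the HFD and CD libraries of some populations did not overlap, and their order was reversed between populations. Csf1r was higher on HFD in pop4 (log2 difference 0.14) and lower on HFD in pop2 (-0.40) and pop3 (-0.35). Csf3r was higher on HFD in pop1 (0.23) and lower on HFD in pop2 (-1.03) and pop4 (-2.22, from 3 reads on HFD and 14 on CD). None of these was called, each rests on 2 libraries per diet, and the difference between these populations was not tested. Such a separation of 2 libraries from 2 arises easily by chance, and how many of all genes show it was not counted. The fitted Csf1r value in pop4 changed sign on leaving out some single libraries. The test of the diet effect in Tim4+ against Tim4- cells gave adjusted p = 0.900 for Csf1r and 0.837 for Csf3r.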

How the results depend on the processing

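Of 3862 recomputed differences of the members, 3603 kept their direction and their side of the threshold, 87 lost a call, 27 gained one, and 145 changed sign without being called in either fit. Of 25 calls, 12 held in every alternative run: Csf3r for adipose cells against monocytes, Tim4+ against Tim4-, pop1 and pop2 against pop4, pop4 against pop3, and pop4 and pop3 against monocytes; Csf1r for Tim4+ against Tim4-, pop1 and pop2 against pop4, and pop4 against monocytes; and Csf2ra for pop4 against monocytes. The cause of the changes below was not tested.

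With the stray signal as a covariate, the members called were 1 in place of 4 for adipose cells against monocytes, 1 in place of 2 for pop4 against pop3, 0 in place of 3 for pop1 and for pop2 against monocytes, and 1 in place of 2 for pop3 against monocytes. In the main fit, 37.0% of all genes were called for adipose cells against monocytes and 6.57% for pop4 against pop3. Against monocytes the main fit called 32.8% (pop1), 40.0% (pop2) and 25.2% (pop3) of all genes. DESeq2's Wald test called 2 in place of 0 for pop1 against pop3, 1 in place of 0 for pop2 against pop3 and 4 in place of 2 for pop3 against monocytes. In CD libraries alone, 1 was called for pop2 and 1 for pop3 against monocytes, and 1 for pop3 against the CD-CD monocytes alone. Csf2ra averaged 154 CPM in CD monocytes of the CD title series and 119 CPM in those of the CD-CD series. With CD monocytes of the CD series alone, its call for adipose cells against monocytes was lost (0.31, SE 0.15, adjusted p = 0.126). Adipose libraries with equal title numbers showed little shared deviation from their group means (correlations -0.0149 to 0.0747). With 2 libraries per group, this cannot tell whether equal numbers mark 1 animal. A replicate block left 2 members called for adipose cells against monocytes and 1 for pop3 against monocytes.

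Leaving out single libraries gave 0 to 1 members called for pop1 against pop3, 1 to 3 for pop1 and 1 to 2 for pop3 against monocytes, and 0 to 1 for HFD against CD in adipose cells, in pop1 and in the Tim4+ minus Tim4- diet effect. The Csf1r difference of adipose cells to monocytes ran from -0.0669 to 0.0731 in these fits, was -0.0657 with no filter and -0.0063 with CD monocytes of the CD title series alone. The diet difference of Csf1r in pop4 ran from -0.0449 to 0.18, and changed sign without pop2 CD replicate 7, pop3 CD replicate 8 or monocyte CD replicate 2.

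Calls over all genes changed in these runs too, so a changed count of members is not a result about these genes alone. All-gene counts per run are given here for adipose cells against monocytes and for Tim4+ against Tim4- alone. Over all genes, calls for adipose cells against monocytes numbered 6278, and 1813 with the covariate, 3297 with the block and 4003 in CD libraries alone. For Tim4+ against Tim4- they numbered 2554, against 405 with the covariate, 397 in CD libraries alone and 4287 by DESeq2. DESeq2 size factors turned 3139 higher and 3139 lower genes of adipose cells against monocytes into 3726 and 2522.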
